A study of Daphnia magna with 24 samples.

Results

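Among the 14338 features of a Daphnia magna microarray, 73 carried no protein description and were lower than in unexposed animals both in dissolved silver (Ag+) and in short silica-coated silver nanowires (S-SiO2-NW). A feature is a spot with 1 probe against 1 transcript fragment. The 73 members were chosen on log2 intensities that had been quantile-normalised over the arrays: every Ag+ value and every S-SiO2-NW value had to lie below all 4 Control values, and both group means had to lie at least 0.7 log2 units below the Control mean (a difference of -0.7 or lower). In all, 140 features (0.976% of those on the array) met this fall rule, of which 67 have a protein description in the authors' deposited table of responding features. Of the 73 members, 65 stand in that table with no description and 8 do not stand in it. Since Control, Ag+ and S-SiO2-NW values chose the members, every difference from Control below is a description and carries no test.

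Daphnia magna is a freshwater crustacean, and whole animals were used. Exposed animals were held for 24 h in COMBO medium with Ag+ or with silver nanowires. Control animals were held in COMBO medium alone, and no exposure time or animal number is listed for them. In the group names L and S mark long and short wires, PVP a polyvinylpyrrolidone coating and SiO2 a silica coating. The 4 nanowire groups are S-SiO2-NW, S-PVP-NW, L-SiO2-NW and L-PVP-NW. Each exposure was given at 1/10 of its own LC50, the median lethal concentration, with about 20 animals per exposure, so silver mass may differ between groups. There are 6 groups with 4 arrays each, hybridised with 1 dye. The labels do not say whether a group's arrays come from separate cultures, so p-values measure the spread between these arrays only. Because whole animals were used, fewer cells of a type and less RNA per cell cannot be told apart.

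A daphnid moults throughout life and builds its carapace from chitin bound to secreted cuticle proteins. Adult females load their eggs with yolk made from vitellogenin, and ribosomal protein and muscle transcripts are among the most abundant in the whole animal. A probe without a description may lie in a transcript that another probe also reports. For the 65 members in the deposited table no protein is named there, and for the other 8 no sequence match is at hand.

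The probes in the deposited table show which members share a run of bases with another probe. Such a run alone does not show that 2 probes report 1 transcript. The first sequences are those of the 6 pairs in which a member's probe shares a run of at least 20 bases with another member or with another feature of the table, a limit chosen after the data were seen. The shared run is in capitals, and all sequences are written 5′ to 3′. DM10550P1 and DM14661P1 share 49 bases on the same strand, while DM07617P1 and DM08572P1 share 24 bases on opposite strands. DM08216P1 shares 32 bases with a feature described as 60S ribosomal protein L34 (DM06389P1), a protein of the large ribosomal subunit; the E value of that description is 0.031, above the limit of 0.001 used here for a firm match. DM11273P3 shares 33 bases on the opposite strand with DM06704P2, listed as a hypothetical protein with no firm match. DM08096P2 shares 25 bases on the same strand with DM14020P3, and DM15008P2 shares 23 on the opposite strand with DM12182P2, both undescribed features that are not members.
DM10550P1: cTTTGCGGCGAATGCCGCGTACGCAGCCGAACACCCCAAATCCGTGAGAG
DM14661P1: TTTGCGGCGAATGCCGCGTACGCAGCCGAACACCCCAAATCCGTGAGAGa
DM07617P1: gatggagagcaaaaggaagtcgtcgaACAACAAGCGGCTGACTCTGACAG
DM08572P1: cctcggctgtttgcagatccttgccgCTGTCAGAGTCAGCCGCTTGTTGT
DM08216P1: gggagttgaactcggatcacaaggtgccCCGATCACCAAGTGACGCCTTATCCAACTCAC
DM06389P1: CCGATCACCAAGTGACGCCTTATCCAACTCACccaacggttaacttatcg
DM11273P3: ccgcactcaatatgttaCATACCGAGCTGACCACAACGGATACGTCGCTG
DM06704P2: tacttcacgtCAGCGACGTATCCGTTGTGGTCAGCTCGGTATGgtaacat
DM08096P2: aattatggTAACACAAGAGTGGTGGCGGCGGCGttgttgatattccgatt
DM14020P3: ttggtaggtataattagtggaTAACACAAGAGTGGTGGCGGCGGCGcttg
DM15008P2: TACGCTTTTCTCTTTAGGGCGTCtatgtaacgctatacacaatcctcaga
DM12182P2: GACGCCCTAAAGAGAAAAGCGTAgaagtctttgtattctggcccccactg

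The next probes belong to the members whose values carry most of the results below. The first is the member with the lowest fitted difference in both exposures of the rule (DM14198P1). The second is a member called higher in L-SiO2-NW than in L-PVP-NW, with limits given below (DM11843P1). The rest are members that were lowest in short PVP-coated nanowires. All these probes share no such run with each other and have no part in capitals.
DM14198P1: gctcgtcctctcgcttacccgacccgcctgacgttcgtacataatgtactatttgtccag
DM11843P1: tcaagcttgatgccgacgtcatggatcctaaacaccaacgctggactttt
DM08131P1: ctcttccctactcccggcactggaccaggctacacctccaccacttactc
DM10454P1: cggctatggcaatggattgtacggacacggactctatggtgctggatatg
DM13008P1: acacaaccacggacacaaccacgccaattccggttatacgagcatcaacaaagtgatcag
DM14565P1: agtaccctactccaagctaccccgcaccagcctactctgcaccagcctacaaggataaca
DM07660P2: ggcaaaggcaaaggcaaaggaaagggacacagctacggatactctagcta

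The fragments behind the members were short. For the 65 members in the deposited table the listed sequence had a median length of 173 bases (50 to 747). Of these, 27 were under 100 bases. The 67 described features that met the same fall rule had a median of 431 bases, with 1 under 100. The 799 undescribed features of the deposited table with a listed length had a median of 187 bases, with 246 under 100. Short fragments were thus not particular to the members. A match to a Daphnia pulex transcript assembly (the sequenced relative) at an E value of 0.001 or less was listed for 38 of the 65 members (58.5%), for 60 of the 67 described falling features (89.6%) and for 41.5% of all 802 undescribed features in the table. The median GC content of the members' probes was 50%, the same as for the described falling features. These are shares of features the authors placed in their table, and no test was made of them.

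The members were brighter than most of the array. Their mean Control intensity had a median of 346, from 93.75 (DM11521P3) to 59237 (DM02350P1), against a median of 66.75 over all features. The median member ranked at the 87.1 percentile of Control intensity. Mean Control intensities were below 200 for 24 members, between 200 and 1000 for 35, between 1000 and 10000 for 12, and above 10000 for 2 (DM02350P1 and DM07660P2). A value is called dim here when it is under 2 times the 25th percentile of the array it was read on. On the Control arrays 61 members were never dim, and only DM09851P1 was dim on all 4. In Ag+ 24 members were dim on every measured array, and in S-SiO2-NW 9 were, so the true fall of these members can be larger than the fitted one. A feature has to stand above background in Control for a fall of this size to be seen, so the brightness follows in part from the rule.

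The depth and the scale of the arrays bear on all that follows. The median intensity per array ran from 60 to 72 over the 24 arrays, and 310 features, among them members DM11320P3 and DM11862P2, read 0 on Ag+ 2 and were taken as missing there. The 1st percentile of intensity, the array floor, was 46 to 50 on the Control arrays and 48 to 50 on those of L-PVP-NW. It was 45 to 46 in Ag+, 42 to 45.4 in S-SiO2-NW and 41 to 43 in both S-PVP-NW and L-SiO2-NW. On intensities as deposited, with no scaling between arrays, 57 of the 73 members had all measured Ag+ values below all Control values, against 9.11% of all features. All S-SiO2-NW values lay below Control for 29 members (3.15% of all features), and both held for 26 (1.72%). On the scale of the rule, with its fold limit, 3.82% of all features met the Ag+ part and 1.45% the S-SiO2-NW part. For the other members the separation from Control rests on quantile normalisation. With the rule applied after median centring 19 undescribed features qualified, of which 16 are among the 73, and with a common 75th percentile 97 qualified, of which 51 are.

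Differences in the rest of the text come from 1 linear model over all 24 arrays (limma) on log2 intensities after background correction and quantile normalisation, and are given with the standard error of the difference at n = 4 arrays per group. On this scale the members' median difference from Control was -1.56 in Ag+ (range -5.41 to -0.68) and -1.12 in S-SiO2-NW (-4.26 to -0.68). The described falling features had medians of -1.39 and -1.03, and the medians over all features were 0.008 and 0.006. With arrays median-centred in place of quantile-normalised, the members' medians were -1.15 in Ag+ and -0.65 in S-SiO2-NW. Array floors of S-SiO2-NW do not overlap those of Control, and those of Ag+ meet them at 46, so floor and exposure cannot be told apart in S-SiO2-NW. With the floor as a covariate, chosen after the data were seen, the medians were -1.40 and -0.82. Of the members, 53 were lower in Ag+ than in S-SiO2-NW.

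**Figure D1:**
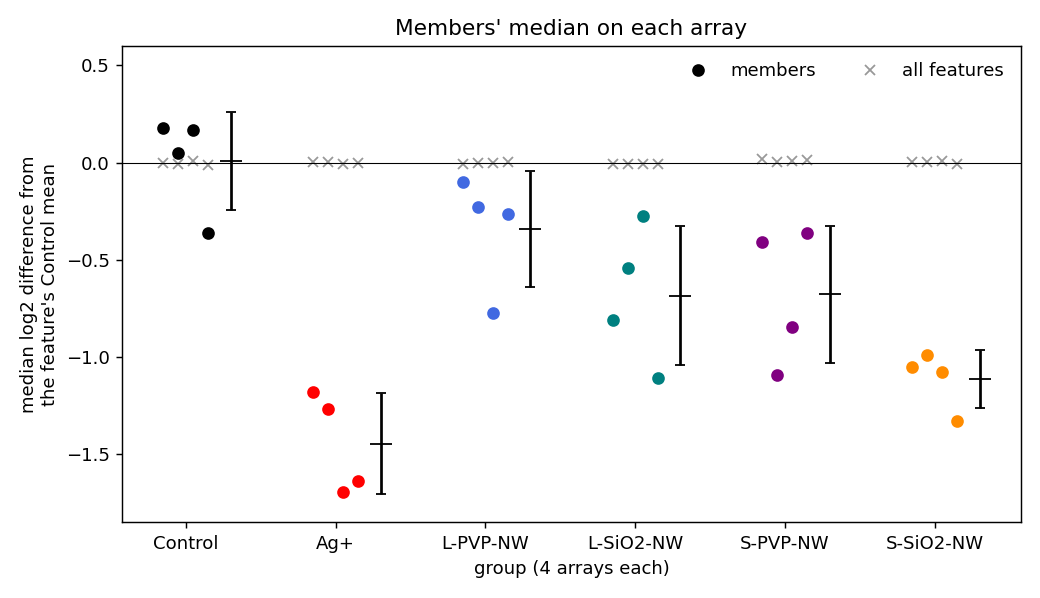
Median over the 73 members of the log2 difference from each member's Control mean (vertical axis), for each of the 24 arrays by group (horizontal axis). Circles are arrays, bars give the mean and SD of the 4 array medians, and crosses are the same median over all features. Ag+ arrays lie between -1.70 and -1.18 and S-SiO2-NW arrays between -1.33 and -0.99, while Control 4 at -0.36 lies apart from the other Control arrays at 0.05 to 0.18.

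Array by array, the members' median difference from their Control means was 0.176, 0.048, 0.17 and -0.361 on Control 1 to 4. It lay between -1.70 and -1.18 on the Ag+ arrays and between -1.33 and -0.99 on the S-SiO2-NW arrays. Control 4 was the lowest Control array, and the rule, which asks for values below all Control arrays, would have taken 178 undescribed features without it, all 73 among them. Of the 73 members, 55 met the rule whichever single array of the 3 choosing groups was left out, and 18 did not.

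The lowest fitted difference in both exposures belonged to DM14198P1, whose listed fragment of 418 bases had a Daphnia pulex match at E = 0.0003. Its intensities were 1630, 2772, 2284 and 3313 in Control, and 62, 60, 60 and 57 in Ag+, where all 4 values were dim. In S-SiO2-NW it read 226, 62, 161 and 357. Both groups lie far below every Control array, and all other nanowire arrays lie above both, between 481 (L-PVP-NW C) and 2553 (L-SiO2-NW 1). The fitted difference was -5.41 ± 0.49 in Ag+, where the fall was at least 25.8-fold, and -4.26 ± 0.49 in S-SiO2-NW. It was -0.86 ± 0.49 in S-PVP-NW, -0.75 ± 0.49 in L-SiO2-NW and -1.31 ± 0.49 in L-PVP-NW.

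One feature described as yolk protein varied across arrays in a pattern like that of DM14198P1, at a different intensity. Over the 24 arrays, which include those that chose the member, its log2 values correlated at r = 0.964 with DM02775P1, described as vitellogenin fused with superoxide dismutase, and over the 12 arrays the rule did not use at r = 0.906. Over those 12 arrays DM14198P1 was nearer to a predicted protein (DM00608P2, r = 0.96), and its median r with all 10 vitellogenin features was 0.34. These 10 had median differences from Control of -0.24 in S-SiO2-NW and 0.44 in L-SiO2-NW, so DM02775P1 does not stand for the list. DM02775P1 read 184, 57, 56 and 55 in Ag+ and 2526, 464, 1791 and 975 in S-SiO2-NW, against 17536 to 53310 in Control. The points of such a correlation share arrays and scaling, and the probes of these features have no common run of 20 bases.

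The brightest member, DM02350P1, is not in the deposited table. It read 65535, the highest value the scanner gave, on 3 Control arrays and 40344 on Control 3. In Ag+ it read 3758, 1293, 1217 and 1196, and in S-SiO2-NW 35690, 17360, 26237 and 20424. All values of both groups lie below all Control values, and the Control level is only a lower limit, because 3 of 4 arrays stand at the ceiling. With those arrays at their read value, the member was at least 37.3-fold lower in Ag+ and at least 2.43-fold lower in S-SiO2-NW. Since the difference of DM14198P1 in Ag+ is a bound as well, the order of these 2 members is not settled. In the long-wire groups 2 of 4 arrays of each were at the ceiling, and the S-PVP-NW arrays read 53832 to 63744, so no difference from Control is given for these groups.

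Several members were much lower in Ag+ than in S-SiO2-NW. DM08994P3 read 1648, 1660, 1025 and 1058 in Control, 332, 157, 127 and 124 in Ag+, and 480, 1101, 851 and 575 in S-SiO2-NW. Its S-SiO2-NW intensities overlap those of Control before scaling. Its fitted differences were -3.27 ± 0.37 in Ag+ and -1.58 ± 0.37 in S-SiO2-NW.

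DM13083P2 read 759, 1117, 844 and 1052 in Control and 365, 130, 165 and 192 in Ag+, a difference of -2.62 ± 0.39. In S-SiO2-NW the difference was -0.99 ± 0.39, and 371 on array 4 was well below the other values of 858 to 1063, which lie within the Control range. Without S-SiO2-NW 4 the difference was -0.54, and DM13083P2 did not meet the rule. For DM09196P2, which read 980 to 1646 in Control, Ag+ 1 at 1169 lies within the Control range before scaling while the other Ag+ arrays read 222, 161 and 170. Its difference in Ag+ was -2.52 ± 0.44, so it rests on 3 of the 4 Ag+ arrays.

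Other members had lower fitted values in S-SiO2-NW than in Ag+. DM13008P1 read 2047, 3527, 1210 and 2264 in Control, 748, 1593, 669 and 1653 in Ag+, and 432, 1697, 251 and 221 in S-SiO2-NW. The Ag+ and S-SiO2-NW ranges overlap widely, and S-SiO2-NW 2 stands well above the other arrays of its group. Its differences were -1.45 ± 0.63 and -2.82 ± 0.63. DM07617P1 read 389, 612, 561 and 464 in Control, 356, 271, 514 and 284 in Ag+, and 340, 45, 139 and 117 in S-SiO2-NW, with differences of -1.05 ± 0.44 and -2.41 ± 0.44. DM07501P2, DM08901P1 and DM07657P3 had differences of -2.25 ± 0.47, -2.70 ± 0.75 and -2.24 ± 0.41 in S-SiO2-NW, where DM08901P1 and DM07657P3 had -1.91 and -1.81 in Ag+.

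Other bright members differed from Control by less than DM02350P1 did in Ag+. DM07660P2 read 28776, 20981, 30739 and 12279 in Control, 8765, 8720, 8321 and 3692 in Ag+, and 9855, 11488, 7723 and 6646 in S-SiO2-NW, without overlap before scaling. DM12744P3 read 4218 to 10168 in Control, 485 to 3173 in Ag+ and 1065 to 6301 in S-SiO2-NW, with differences of -2.42 ± 0.58 and -2.13 ± 0.58. At the dim end, DM11521P3 read 68 to 112 in Control and 55 to 60 in Ag+, and DM09851P1 read 85 to 105 and 47 to 62. These 2 members lie close to the array background in every group, so their fitted differences of -0.71 and -0.87 in Ag+ have little range to be measured in.

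The rule's limit cut through a continuous range. On the scale of the rule the members nearest to the Ag+ limit were DM10323P1 at -0.72 and DM11521P3 at -0.78, and the nearest features outside it, otherwise meeting the rule, were DM08724P1 at -0.69 and DM12217P1 at -0.56. For S-SiO2-NW the nearest inside were DM14578P1 at -0.74 and DM06018P1 at -0.74, and the nearest outside DM14020P3 at -0.68 and DM09606P1 at -0.68. Only 4 undescribed features missed the set by the Ag+ limit alone, against 32 by the S-SiO2-NW limit alone. DM14020P3 is the feature that shares a probe run with member DM08096P2.

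**Figure D2:**
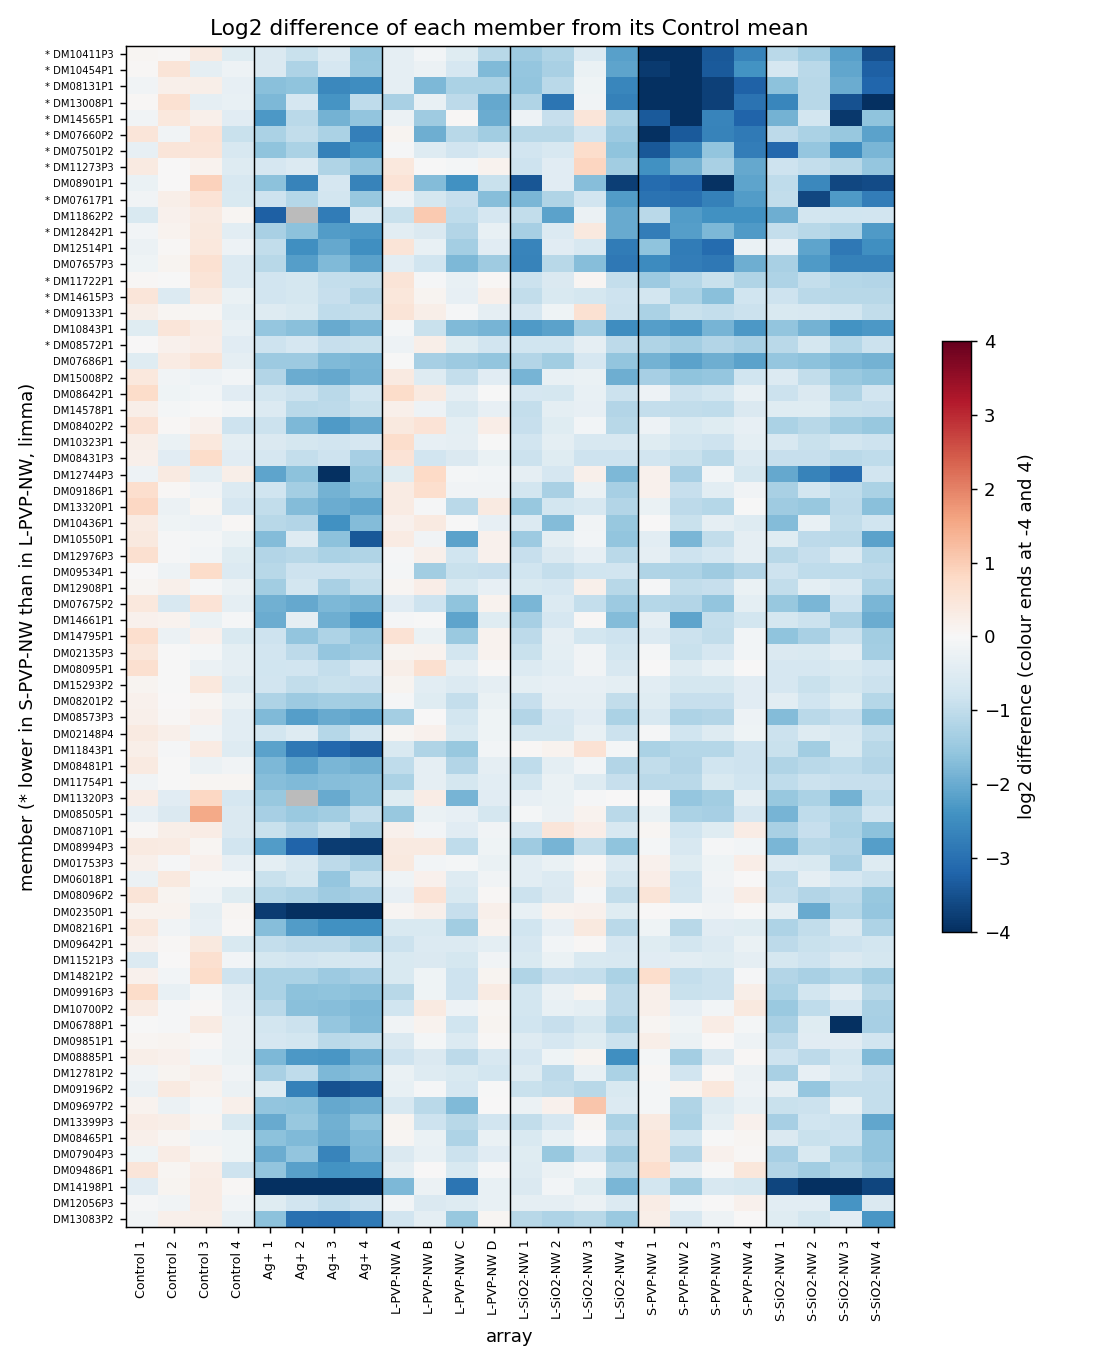
Log2 difference of each member (rows) from its Control mean on each of the 24 arrays (columns), blue for lower and red for higher, with colour ending at -4 and 4. Grey cells are missing values on Ag+ 2, and stars mark the 14 members that were lower in S-PVP-NW than in L-PVP-NW (limma, adjusted p under 0.05). Rows run from the lowest to the highest difference between those 2 groups, and all 14 starred members have a lower mean in S-PVP-NW than in S-SiO2-NW.

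In the 3 exposures that did not choose the members, most members also lay below Control, by less. The median difference was -0.62 in S-PVP-NW (68 of 73 members below 0), -0.72 in L-SiO2-NW (71 below 0) and -0.39 in L-PVP-NW (62 below 0). With arrays median-centred the 3 medians were -0.38, -0.43 and -0.39, and the gap to L-PVP-NW was not seen on that scale. The described falling features gave -0.61, -0.77 and -0.32 in the same order. These comparisons use the Control arrays that chose the members, so a position below Control is in part fixed by the choice. The floors of S-PVP-NW and L-SiO2-NW (41 to 43) do not overlap those of Control (46 to 50) either, and with the floor as a covariate the medians were -0.32, -0.29 and -0.51. All 5 exposures are set against the same Control arrays.

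Counted as in the rule, with all 4 values below all Control values and a mean lower by at least 0.7, 4 members lay below Control in L-PVP-NW (0.286% of all features did). There were 20 in L-SiO2-NW (1.12%) and 31 in S-PVP-NW (1.65%). Of the 67 described falling features 3, 15 and 16 did. The 4 in L-PVP-NW were DM08131P1, DM08481P1, DM08885P1 and DM11754P1, named because there are so few. Leaving out 1 array moved the L-PVP-NW count to 9 (without Control 4), 11 (without A), 7 (without B), 2 (without C) or 8 (without D), and the L-SiO2-NW count to 37 (without Control 4) or 42 (without L-SiO2-NW 3).

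The members nearest to or above Control differed by exposure. In L-PVP-NW, DM08402P2 had the highest difference (0.21 ± 0.30), followed by DM08642P1 (0.18 ± 0.24) and DM09186P1 (0.18 ± 0.30). In L-SiO2-NW, DM11843P1 (0.17 ± 0.28) and DM09697P2 (0.12 ± 0.34) were the 2 members above 0. In S-PVP-NW there were 5, led by DM09486P1 (0.20 ± 0.28) and DM12056P3 (0.10 ± 0.29). None of these differences exceeds its standard error. DM12056P3 read 216, 278, 47 and 297 in S-SiO2-NW against 196 to 291 in Control, and it met the rule neither without S-SiO2-NW 3, the array at 47, nor without Control 3.

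The lowest members in L-SiO2-NW were DM08901P1 (-2.33 ± 0.75), DM07657P3 (-2.09 ± 0.41) and DM10843P1 (-2.06 ± 0.33). DM10843P1 read 186, 407, 280 and 325 in Control and 79, 73, 133 and 59 in L-SiO2-NW, with no overlap. DM08901P1 varied most within groups, reading 120, 697, 297 and 78 in L-SiO2-NW and 1167, 235, 233 and 392 in L-PVP-NW.

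The 3 nanowire groups that the rule left out can be compared with each other by a test whose group means the choice of members did not use. Its standard errors pool the spread over all 24 arrays, those that chose the members among them, so each count is also given from a fit on the 12 unused arrays. For the silica against the PVP coating on long nanowires (L-SiO2-NW minus L-PVP-NW), limma called 4 of 73 members (5.48%) at an adjusted p under 0.05, against 4.78% of all features, a share near the background. Of the 4, 3 were lower in L-SiO2-NW (2.1% of all features were) and 1 was higher (2.69%). At an unadjusted p under 0.05 there were 20 members (20.5% of all features). The members' median difference was -0.45, against -0.006 over all features. The fit on 12 arrays called 2 members, against 6.04% of all features. DM08994P3 was lower (-1.35 ± 0.37, adjusted p = 0.0399), with 872, 411, 813 and 730 in L-SiO2-NW and 1633, 1636, 1052 and 979 in L-PVP-NW. DM09186P1 (-1.08 ± 0.30, adjusted p = 0.0468) and DM14615P3 (-0.89 ± 0.22, adjusted p = 0.0265) were lower as well, though the limma adjusted p of DM09186P1 was 0.0615 in the fit on 12 arrays. Leaving out L-PVP-NW A or B, or L-SiO2-NW 1 or 4, left 0 members called by limma, with 16, 15, 17 and 13 at an unadjusted p under 0.05. Without L-PVP-NW C there were 8, without L-SiO2-NW 2 there was 1, and without Control 2, Ag+ 2 or S-PVP-NW 3 there were 2.

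DM11843P1, with the longest fragment of the set (747 bases), moved the other way and was higher in L-SiO2-NW than in L-PVP-NW (1.02 ± 0.28, adjusted p = 0.0426, or 0.0512 by limma on 12 arrays). With 1 array left out at a time, limma did not call this difference in 11 of 24 fits. It read 758, 727, 700 and 722 in Control, 191, 109, 109 and 91 in Ag+, and 515, 486, 700 and 691 in S-SiO2-NW. In L-SiO2-NW it read 1335, 903, 1379 and 1129, above all Control arrays before scaling, and in L-PVP-NW 398, 289, 396 and 583, below all of them. It was also lower in S-PVP-NW than in L-SiO2-NW (-1.26 ± 0.28, adjusted p = 0.0203), with 375, 523, 514 and 442. Among features with a firm description its values over the 12 arrays were nearest to DM01546P3, another vitellogenin fused with superoxide dismutase (r = 0.903). Over all 24 arrays they were nearest to ribosomal protein L44 (DM02282P1, r = 0.899). With group means taken out over the 24 arrays the nearest was a hypothetical protein (DM02654P2, r = 0.812).

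**Figure D3:**
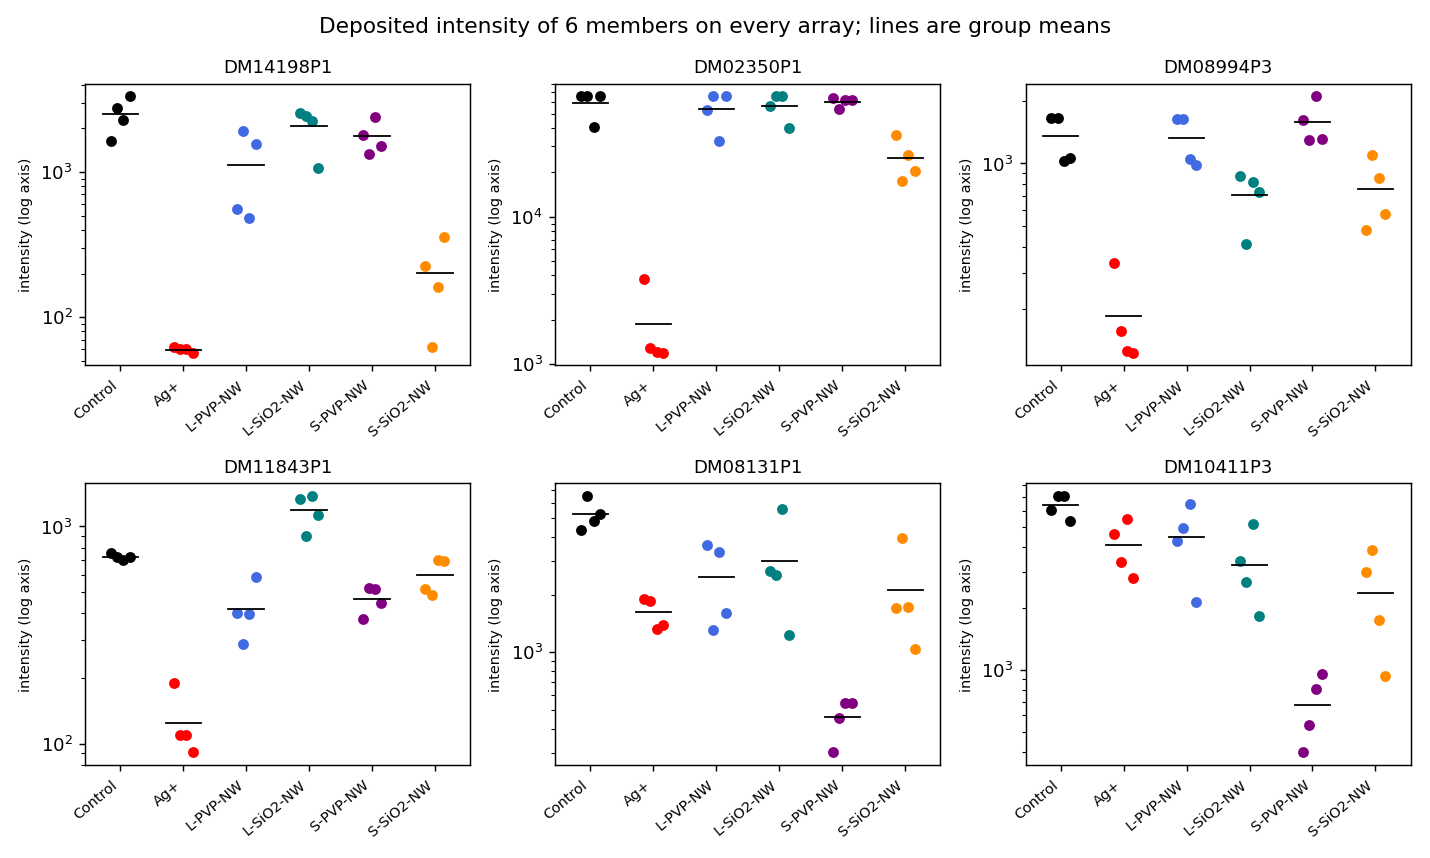
Deposited intensity (vertical log axis) of 6 members on every array, by group, with lines at group means and no scaling between arrays. DM14198P1, DM02350P1 and DM08994P3 are lowest in Ag+, DM11843P1 is highest in L-SiO2-NW at 903 to 1379, and DM08131P1 and DM10411P3 are lowest in S-PVP-NW.

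For short against long nanowires with the PVP coating (S-PVP-NW minus L-PVP-NW), limma called 14 of 73 members (19.2%), all lower in S-PVP-NW, against 2.15% of all features called, 1.36% called lower and 0.788% called higher. At an unadjusted p under 0.05 there were 25 members (16% of all features). Of the 67 described falling features 7 were called, also all lower. The share among the members is above that over all features, but 9410 of all features were dim on all Control arrays, against 1 member. No share was taken over features of like brightness. DM07617P1, DM08572P1 and DM10454P1, all called, list 1 assembly, so the 14 may not be separate. Over all 73 members, called or not, the median difference was -0.37 (quartiles -0.95 and 0.06), against 0.008 over all features (-0.09 and 0.12). The fit on 12 arrays called 10 members, all among the 14, against 1.88% of all features; DM07501P2, DM09133P1, DM12842P1 and DM13008P1 were not called in it, with limma adjusted p from 0.0511 to 0.0861. Leaving out L-PVP-NW A or S-PVP-NW 1 gave 7, leaving out L-PVP-NW B or array 2 of S-PVP-NW gave 8, and leaving out array 4 of S-PVP-NW gave 9.

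DM10411P3 had the largest of these differences (-3.02 ± 0.45, adjusted p = 0.00205). It read 396, 537, 806 and 956 in S-PVP-NW, 4290, 4951, 6497 and 2160 in L-PVP-NW, and 6037, 7066, 7056 and 5337 in Control. The S-PVP-NW arrays lie below every array of both groups. In Ag+, at 4601, 3364, 5497 and 2818, this member overlapped Control before scaling and its difference was only -0.89 ± 0.45, or -0.67 without Ag+ 4, when it did not meet the rule.

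DM10454P1 read 160, 169, 270 and 398 in S-PVP-NW and 1424, 1592, 2038 and 491 in L-PVP-NW (-2.63 ± 0.50, adjusted p = 0.0101). DM08131P1 read 301, 454, 548 and 544 against 3653, 1307, 3349 and 1610 (-2.63 ± 0.46, adjusted p = 0.00659). DM13008P1 read 151, 116, 217 and 287 against 711, 1636, 1686 and 414 (-2.63 ± 0.63, adjusted p = 0.0359). In all 3 members every S-PVP-NW array lay below every L-PVP-NW array.

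The remaining called members ranged from -2.42 ± 0.56 for DM14565P1 (adjusted p = 0.0306) to -0.95 ± 0.18 for DM08572P1 (adjusted p = 0.0104). DM08572P1, DM09133P1 and DM11722P1 were dim on all 4 S-PVP-NW arrays, and their falls were at least 1.06-, 1.76- and 1.64-fold. DM07660P2 read 834, 2470, 4157 and 2732 in S-PVP-NW, all below its lowest L-PVP-NW value of 4368 (-2.29 ± 0.48, adjusted p = 0.0181).

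Against the long silica-coated nanowires (S-PVP-NW minus L-SiO2-NW), where both length and coating differ, limma called 8 members (11%), all lower in S-PVP-NW, against 2.96% of all features called, 1.48% called lower and 1.49% called higher. At an unadjusted p under 0.05 there were 25 members (14.7% of all features). The fit on 12 arrays called 10 members, against 4.94% of all features: 7 of the 8, without DM11273P3, and 3 that were higher in S-PVP-NW (DM06788P1, DM08994P3 and DM09196P2). DM14565P1 read 604, 449, 1279 and 597 in S-PVP-NW and 7457, 3029, 10339 and 3120 in L-SiO2-NW (-2.84 ± 0.56, adjusted p = 0.0112). DM08131P1 (-2.45 ± 0.46, adjusted p = 0.00883), DM07660P2 (-2.27 ± 0.48, adjusted p = 0.0138) and DM10411P3 (-2.20 ± 0.45, adjusted p = 0.0127) followed. Among the 8, every one but DM11843P1 was also called against L-PVP-NW, but the comparisons share the S-PVP-NW arrays. Without S-PVP-NW 1 the count was 2, and without L-SiO2-NW 2 or 3 it was 4.

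The array floor also bears on the contrasts with L-PVP-NW. Floors of L-PVP-NW (48 to 50) do not overlap those of S-PVP-NW or L-SiO2-NW (both 41 to 43), so the floor and these exposures cannot be told apart there. With the floor as a covariate limma called 0 members in both contrasts with L-PVP-NW, with 11 (S-PVP-NW) and 1 (L-SiO2-NW) at an unadjusted p under 0.05. In S-PVP-NW against L-SiO2-NW, where the floors cover the same range, it called 9.

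The 14 members called against L-PVP-NW differed from the other 59 in more than S-PVP-NW, although this split was made after the values were seen and gets no test. Their median difference from Control was -2.65 in S-PVP-NW, against -0.53 for the others. In Ag+ it was -1.02 against -1.63, and in S-SiO2-NW -1.64 against -1.09. All 14 were lower in S-PVP-NW than in S-SiO2-NW relative to the same Control arrays, and 10 of the 59 were. In Ag+, 4 of the 14 and 49 of the 59 lay below their own S-SiO2-NW value. Their median Control intensity was 672.2, against 310.5.

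The described features nearest to each member give the members a context. Firm descriptions (E of 0.001 or less) are listed for 493 features. They were grouped by words in their descriptions, and the muscle list holds actins, and also myosins described as nonmuscle or smooth muscle. Over the 12 arrays the rule did not use, the nearest by Pearson r was a listed cuticle protein for 11 of the 14. That held for 0 of the other 59, whose nearest feature was a ribosomal protein in 11 cases and on the muscle list in 7. The count leaves out DM07660P2, whose nearest was DM02210P2, similar to CG6305-PA, a name that cuticular protein 50Cb (DM02582P1) also carries. It also leaves out DM10411P3, nearest to a Spätzle 2-like protein (DM01743P3, r = 0.954). DM14615P3 is outside it too, nearest to S9 ribosomal protein (DM01594P2, r = 0.871). DM12842P1 was nearest to a putative cuticle protein (DM02274P1, r = 0.985), DM07501P2 to cuticle protein DM02885P1 (r = 0.982), and DM08131P1 to the RR-2 cuticular protein 146 (DM02211P2, r = 0.971), of a family of chitin-binding cuticle proteins. The 19 cuticle features had themselves a median difference of -1.51 in S-PVP-NW, so a split by S-PVP-NW brings such a likeness with it. Over all 24 arrays a listed cuticle protein was the nearest for 8 of the 14 and for 2 of the 59. With the group means taken out over the 24 arrays, that held for 8 of the 14 and for 1 of the 59.

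Among the other members, DM12976P3 was nearest to ribosomal protein S27A (DM01643P2, r = 0.98), a protein of the small ribosomal subunit made as a fusion with ubiquitin. DM02135P3 was nearest to ribosomal protein subunit 3 (DM01652P2, r = 0.973) and DM13320P1 to calmodulin (DM02447P1, r = 0.969), a calcium sensor. DM12744P3 was nearest to a myosin heavy chain described as nonmuscle or smooth muscle (DM01615P1, r = 0.935). The median r over these 59 members was 0.504 with the 27 ribosomal protein features, 0.508 with the 11 muscle features and 0.21 with the cuticle features. For the 14 it was 0.265, 0.258 and 0.843. A nearest feature is the highest of 493 correlations over 12 arrays, so its r is high by selection.

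As a set the members moved together across arrays. The mean r over all pairs of members was 0.567 over the 24 arrays, 0.353 with group means taken out, and 0.35 over the 12 arrays the rule did not use. The described falling features gave 0.621, 0.364 and 0.389, and all features 0.002, 0.001 and 0.001. Pairs share arrays and scaling, and the first of these values includes the falls that chose the members.

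The mean profile of the members, each scaled to its own mean and SD, was closest over the 12 arrays to DM05949P2, described only as F26F4.11 (r = 0.966). The next were 60S ribosomal protein L7 (DM01657P4, r = 0.941), a glutathione S-transferase listed as GST (DM01724P2, r = 0.941), a feature listed as unknown (DM01659P1, r = 0.932), CG1475-PB (DM01957P2, r = 0.924), ribosomal protein S17e (DM02899P2, r = 0.916), S27A (DM01643P2, r = 0.914) and L27 (DM01922P1, r = 0.914). Of these 8, DM05949P2, DM01724P2 and DM01957P2 do not meet the fall rule, with differences of -0.56, -0.63 and -0.63 in S-SiO2-NW.

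Over all 24 arrays the highest values were those of acidic ribosomal protein P1 (DM02018P1, r = 0.941), part of the ribosomal stalk, L7 (r = 0.937), a vacuolar proton ATPase subunit (DM00795P1, r = 0.93) and CG1475-PB (DM01957P2, r = 0.928). The lowest were DM05863P1, a predicted protein (r = -0.944), and DM02296P3, similar to CG7986 (r = -0.932). By group of description, the median r over the 12 arrays was 0.757 for 27 ribosomal protein features, 0.651 for 11 muscle, 0.469 for 19 cuticle, 0.322 for 5 hemoglobin, 0.296 for 6 respiratory chain, 0.278 for 26 digestive enzyme and 0.071 for 10 vitellogenin features, against 0.16 for all 493. The 1 opsin feature had r = -0.553. The fall rule was met by 13 ribosomal, 5 muscle, 2 cuticle, 1 vitellogenin and 1 respiratory chain feature, and by 45 of the 493.

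Some members share a probe run or a Daphnia pulex assembly, so the 73 may not all be separate genes. The 2 probes that share 49 bases, DM10550P1 and DM14661P1, correlated at r = 0.938 over the 24 arrays. DM10550P1 read 938, 781, 563 and 909 in Control and 277, 671, 428 and 94 in Ag+, and DM14661P1 read 767, 879, 486 and 1035 and then 222, 728, 332 and 230. Both were high on Ag+ 2 and low on L-PVP-NW C (266 and 265).

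By their listed matches, DM07617P1, DM08572P1 and DM10454P1 fall on overlapping stretches of 1 Daphnia pulex assembly, DM08572P1 in the opposite direction. Over the 12 arrays DM07617P1 correlated at r = 0.97 with DM10454P1 and at r = 0.904 with DM08572P1, and all 3 were called lower in S-PVP-NW than in L-PVP-NW. On S-SiO2-NW 2 they parted: DM10454P1 read 1651 there, its highest value in that group, while DM07617P1 read 45, its lowest. DM07660P2 and DM08710P1 also list 1 assembly, but at positions that do not overlap, and they correlated at only r = 0.151 over the 12 arrays. DM07660P2 was lower by 3.37 ± 0.48 log2 units in S-PVP-NW than in Control (-3.37), where DM08710P1 was at -0.22 ± 0.27.

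**Figure D4:**
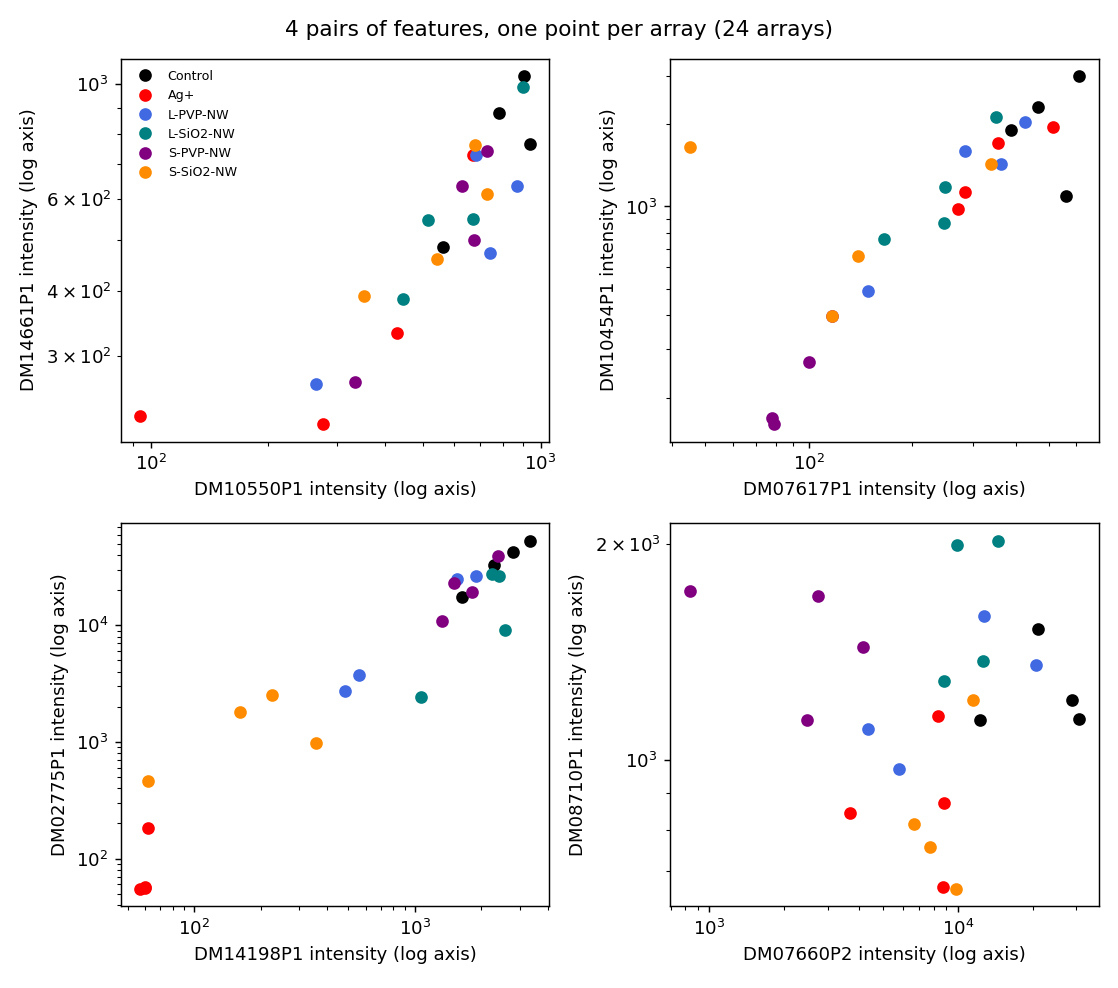
Deposited intensities of 4 pairs of features on log axes, 1 point per array and 1 colour per group. DM10550P1 with DM14661P1 (49 shared probe bases), DM07617P1 with DM10454P1 (1 assembly) and DM14198P1 with the vitellogenin feature DM02775P1 run together, with S-SiO2-NW 2 apart in the second pair at 45 and 1651. DM07660P2 and DM08710P1 (1 assembly, no overlap of positions) do not, and the S-PVP-NW arrays stand at the left.

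In all, 16 members list a Daphnia pulex assembly that another feature of the table also lists, where both matches have an E value of 0.001 or less. Of these, 2 share it with members only, 3 with members and a described feature, 8 with a described feature and no member, and 3 with other undescribed features only. The described feature has a firm description in 6 cases. DM10550P1 and DM14661P1 also list 1 assembly, but with E values above the limit. DM08885P1 shares its assembly with beta actin (DM02014P1), a cytoskeletal protein. It read 362, 412, 264 and 418 in Control and 117, 80, 89 and 128 in Ag+ (-2.10 ± 0.40), and the actin feature differed by -1.26 there, with r = 0.757 between the 2 over 24 arrays. DM13320P1 shares one with ribosomal protein P2-like DM02189P2 (r = 0.664), DM14795P1 with ADP/ATP translocase DM01658P1 (r = 0.57), the carrier that exchanges ATP across the inner mitochondrial membrane. DM14565P1, one of the members lowest in S-PVP-NW, lists an assembly with 5 other features. Over the 24 arrays it correlated at r = 0.809 with DM11801P2 and 0.731 with DM08393P3, both undescribed, at 0.489 with DM02560P2 and 0.468 with DM02500P3, both listed as hypothetical proteins with firm matches, and at 0.258 with cuticular protein 78Cc (DM06374P1, E = 0.027). Their differences in S-PVP-NW were -1.62, -2.28, -0.997, -3.12 and -0.82 in that order.

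The L34 probe pair places a member beside a described feature. DM08216P1 read 423, 344, 237 and 539 in Control and 130, 85, 84 and 86 in Ag+ (-2.20 ± 0.31). DM06389P1 had a mean intensity of 142.5 ± 41.6 in Control and 56.5 ± 7.23 in Ag+ (SD, n = 4), a difference of -1.45. Its Ag+ values of 60, 50, 65 and 51 lay close to the array background. Its fall there can therefore be larger than fitted, and the 2 differences in Ag+ cannot be ranked. The 2 features correlated at r = 0.684 over the 24 arrays. In S-SiO2-NW the differences were -1.01 for the member and -0.75 for the described feature, which does not meet the fall rule. DM11273P3 read 62, 99, 163 and 79 in S-PVP-NW and 263 to 431 in L-PVP-NW, without overlap (-2.03 ± 0.36, limma adjusted p = 0.00709). Its partner on the opposite strand, DM06704P2, was at -0.38 in S-PVP-NW and 0.14 in L-PVP-NW relative to Control, with r = 0.752 between the 2 over the 24 arrays. DM06704P2 had mean intensities of 69.75 ± 9.39 in Control, 76 ± 6.48 in L-PVP-NW and 51.75 ± 4.19 in S-PVP-NW (SD). It lay close to the array background, so it had little range to fall in and the 2 differences cannot be set against each other.

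The authors' deposited table gives its own log2 ratios over the media control for some of these features. It lists a value for 53 members in silver (median -1.9), 61 in S-SiO2-NW (median -1.2), 35 in S-PVP-NW (median -1.3), 29 in L-SiO2-NW (median -1) and 9 in L-PVP-NW (median -0.7), and every listed value in the authors' deposited table for a member is below 0. These ratios come from the same arrays and are no independent evidence.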

How the data were processed

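The deposited intensity values are single-colour scanner intensities, whole numbers up to 65535 and not scaled between arrays; per the labels, 300 ng of total RNA was labelled with Cy3 using an Agilent Quick-Amp kit, while nothing is stated on the scanner. The authors' deposited table holds log2 ratios over the media control, and its E values, per the file headers, come from sequence searches. No other per-sample columns were used or left out (0).

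Intensities of 0 were taken as missing. Members were chosen on quantile-normalised log2 intensity without background correction. For all other differences, normexp (offset 50), log2 and quantile normalisation over 24 arrays were followed by limma 3.58.1 in R 4.3.3 with 1 mean per group, eBayes (prior df 1.59), two-sided tests and p-values adjusted by Benjamini-Hochberg over all 14338 features, with a limit of 0.05. The offset pulls differences of dim features toward 0. A fold is given as a lower bound where every array of 1 group was dim. Exact tests of 4 against 4 arrays cannot go below p = 0.0286, and the number of arrays limits the precision. The script was tested on simulated data. Probes were compared in Python 3.11.15.

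Members and lists were chosen with earlier results of these data known. Members named are those with the 6 largest falls in Ag+ and in S-SiO2-NW, the 6 brightest and 2 dimmest, the 2 nearest to each limit, up to 4 per direction called in each contrast, and the 3 lowest and highest in each other exposure; described features are the 8 with the highest r over 12 arrays and the 4 highest and 2 lowest over 24. Members named for a nearest feature, a shared probe or a shared assembly, and the remaining called members, were chosen after their values were seen. Same-numbered arrays of Control and Ag+ (residual r of 0.132 to 0.41) and of Ag+ and S-SiO2-NW (0.264 to 0.429) deviated together; the labels do not say what a number marks, and no test was made between these groups. Alternatives were other scalings and filters, fewer arrays, array weights, a replicate block, leaving out each array and, added after the data were seen, the array floor as a covariate (also for the medians against Control) and the counts against Control under other scalings or without 1 array. The 8 members that are not in the table have no probe sequence here.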

Additional observations from a re-analysis of the deposited data

Results flagged for a closer look

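In 13 of 186 groups of 4 arrays tested on the fitted log2 scale, 1 array of a named member lay far from the other 3, by the share of the group's range taken up by the gap to its nearest neighbour. Chance alone gives about 1 in 20 groups. The gap was 0.872 of the range for DM14198P1 in S-PVP-NW (array 2, 1328) and 0.867 for DM08994P3 in S-PVP-NW (array 2, 1299). For DM02350P1 the gap was 0.872 in Control (array 3, 40344) and 0.883 in L-PVP-NW (array C, 32679). In these groups of DM02350P1, 3 Control and 2 L-PVP-NW arrays stand at the ceiling of 65535, so the chance rate does not hold there. Among the other groups, the gaps were as follows. It was 0.842 for DM13083P2 in Ag+ (array 1, 365) and 0.872 in S-SiO2-NW (array 4, 371), 0.835 for DM07660P2 in Ag+ (array 4, 3692), 0.874 for DM11521P3 in L-SiO2-NW (array 2, 77) and 0.897 for DM09697P2 in S-SiO2-NW (array 3, 451). For DM12056P3 it was 0.829 in Control (array 3, 224) and 0.91 in S-SiO2-NW (array 3, 47), an array without which it is not a member. DM14578P1 in S-PVP-NW (array 4, 88) had 0.856 and DM14615P3 in S-SiO2-NW (array 1, 117) had 0.886. Where the intensity named lies within the range of the others, the array stood apart only after scaling.

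The 3 contrasts between exposures that did not choose the members each gave called members: 4 for L-SiO2-NW against L-PVP-NW, 14 for S-PVP-NW against L-PVP-NW and 8 for S-PVP-NW against L-SiO2-NW (limma, adjusted p under 0.05). With the array floor as a covariate the first and second gave 0 calls, and the fit on the 12 arrays the rule did not use gave 2, 10 and 10.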

How the results depend on the processing

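No named member called in a contrast changed direction under any alternative run. For L-SiO2-NW against L-PVP-NW the 4 calls became 2 when arrays were median-centred, shifted to a common 75th percentile or limited to the 12 the rule did not use. They became 12 with array weights and 0 with a floor covariate (1 at an unadjusted limma p under 0.05), and leaving out each array gave 0 to 8. For S-PVP-NW against L-PVP-NW the 14 calls became 0 with the floor (11 unadjusted) and 7 to 15 without 1 array, and 10 to 17 under the other settings. For S-PVP-NW against L-SiO2-NW the 8 calls became 13 with median centring and 2 to 10 without 1 array. The cause of these shifts was not tested. Of the tested contrasts only S-PVP-NW against L-SiO2-NW has numbered arrays in both groups, and there the numbers did not pair them: residuals of arrays with the same number correlated at 0.259, 0.165, 0.134 and -0.069, no array correlated best with its own number, and the replicate block over 20 numbered arrays gave 9 calls.

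Median centring moved the members' median difference to -1.15 in Ag+ and -0.65 in S-SiO2-NW, and the floor covariate to -0.82 in S-SiO2-NW and -0.29 in L-SiO2-NW. A common 75th percentile moved the median of all features to -0.246 in Ag+, -0.305 in L-SiO2-NW, -0.399 in S-SiO2-NW and -0.181 for S-PVP-NW. Relative to it the members' medians were -1.18, -0.41, -0.65 and -0.39. Without 1 array the medians ran from -0.79 to -0.55 in S-PVP-NW, -0.84 to -0.56 for L-SiO2-NW and -0.52 to -0.22 in L-PVP-NW. Counts below Control, with alternatives chosen after the data were seen, became 2 in L-PVP-NW with a common 75th percentile and 6 in L-SiO2-NW with median centring, and ranged without 1 array over 27 to 37 in S-PVP-NW, 17 to 42 in L-SiO2-NW and 2 to 11 in L-PVP-NW. The number of members was 19 with median centring, 111 at a limit of -0.5, 43 at -1.0 and 71 to 178 without 1 array. The r of DM02018P1 with the members' profile stayed at 0.913 to 0.966 without each group.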
